A study of Mus musculus with 12 samples.

Results

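Protein phosphatase genes were taken from the deposited RNA-seq tables by their symbols. All genes were included whose symbol starts with Ppp and a digit from 1 to 6, Ppm1, Ptpn, Ptpr, Ptp4a, or Dusp and a digit. This rule found 56 of the 3439 listed genes. Of these, 37 belonged to the serine/threonine phosphatases (Ppp and Ppm1) and 19 to the tyrosine and dual-specificity phosphatases (Ptp and Dusp).

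The study compared group 2 innate lymphoid cells (ILC2s), tissue lymphocytes that produce type 2 cytokines, that were tdTomato- or tdTomato+ in the same kind of mouse. All mice were male, carried a tamoxifen-inducible Cre in the *Tigit* locus together with a Cre-activated tdTomato allele (TIGIT-Cre-ERT2:Rosa26-LSL-tdTomato), and received nasal papain, a protease allergen, and oral tamoxifen, with cells for RNA taken on day 19. Both populations thus carried the same alleles and the same treatment, and they differed in the tdTomato signal by which lung ILC2s were sorted. Cells that expressed *Tigit* while tamoxifen was given become tdTomato+, so the tdTomato- cells can include cells that expressed it before. The labels name 4 RNA-seq libraries of each population, and ages, numbers of pooled animals and the pairing of libraries are not given in the sources used here.

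The 2 deposited tables divide the listed genes into 2906 that were listed as lower and 533 that were listed as higher in tdTomato+ ILC2s. For every gene, they hold 1 average level over the libraries of both populations, in log2 CPM (reads of a gene scaled to a fixed library total), and libraries are not given singly. The average level is at least 5.00 for every listed gene. The other columns hold outcomes of the comparison made by the study and were not used. Thus, what can be described is which phosphatase genes are listed, in which table, at which average level, and what these genes share. The spread between replicates and the level in either population are not known here, so no difference between genes was tested. In sorted bulk cells, fewer cells of a kind and less RNA per cell cannot be told apart.

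To describe the labelled cell type, 9 marker genes of ILC2s were looked up. All 9 were listed, each of them as lower in tdTomato+ ILC2s, with average levels from 6.47 log2 CPM (*Klrg1*) to 9.98 log2 CPM (*Il1rl1*, the receptor for IL-33). The part of this shared direction in the listing of the phosphatase genes was not tested. Of 6 T cell markers, only *Cd3g* was listed, at 6.12 log2 CPM, and of 3 B cell, 2 natural killer cell, 5 macrophage and 3 epithelial markers, 0 were listed. A gene that is not listed can have missed either the limit on the level or the limit on the difference, so its absence does not show that it was silent. In the paper's gate, ILC2s are positive for CD45, CD127, CD25 and ST2 and negative for lineage markers. The sort thus selected for the products of *Ptprc*, *Il7r*, *Il2ra* and *Il1rl1* and against lineage markers. These genes are therefore no independent check of the cell type.

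Protein phosphatases remove phosphate groups that kinases attach to proteins. The serine/threonine phosphatases PP1, PP2A, calcineurin, PP4 and PP6 are built from a few catalytic subunits, each of which is steered to its substrates by many regulatory subunits, whereas PPM phosphatases act without such partners. Tyrosine phosphatases carry their specificity in the same protein and are either soluble or span the membrane as receptors. Dual-specificity phosphatases mostly act on MAP kinases, and several are transcribed within minutes of stimulation. In lymphocytes, the receptor phosphatase CD45 keeps Src-family kinases ready to act, and SHP1 and SHP2 bind the cytoplasmic tails of inhibitory receptors.

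In tdTomato+ ILC2s, 51 of the 56 phosphatase genes stood in the table of lower genes and 5 in that of higher genes. Because the rule reads from both tables, this division describes the list and is not a test. The 5 genes make up 8.93% of the phosphatase genes (exact binomial interval for counting error, 2.96% to 19.6%), and across all listed genes 15.5% were listed as higher. The interval contains the share over all listed genes. In the serine/threonine class 1 of 37 genes (2.7%, exact binomial interval 0.0684% to 14.2%) was listed as higher, and in the tyrosine and dual-specificity class 4 of 19 (21.1%, exact binomial interval 6.05% to 45.6%). The share of 15.5% lies above the interval of the serine/threonine class and within that of the other class. These intervals treat genes as independent, so this comparison is no test of either class. The share over all genes also varies with gene length. Among listed genes with a genomic span under 250 kb it was 11.2%, which lies within both intervals. The 5 genes were *Ptprd*, *Ptprk*, *Ptprm*, *Ptprn2* and *Ppp1r9a*.

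The families were unevenly covered. The annotation holds 153 protein-coding genes that match the rule, of which 56 (36.6%) were listed. As lower, 33.3% of the annotated phosphatase genes were listed, against 13.2% of all annotated protein-coding genes. As higher, 3.27% were listed, against 2.3% of all annotated protein-coding genes. Serine/threonine genes were listed as lower in 41.4% (exact binomial interval 30.9% to 52.4%) and tyrosine and dual-specificity genes in 22.7% (13.3% to 34.7%). Complete coverage was seen for the catalytic subunits of PP1, with 3 of 3 genes. At the other end, 4 of 24 dual-specificity genes and 3 of 12 PPM genes were listed, and *Ppp5c*, the gene of PP5, was not. The annotation includes many genes that ILC2s may not express, and a gene had to reach the limit on the level to be counted as listed.

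**Figure D1:**
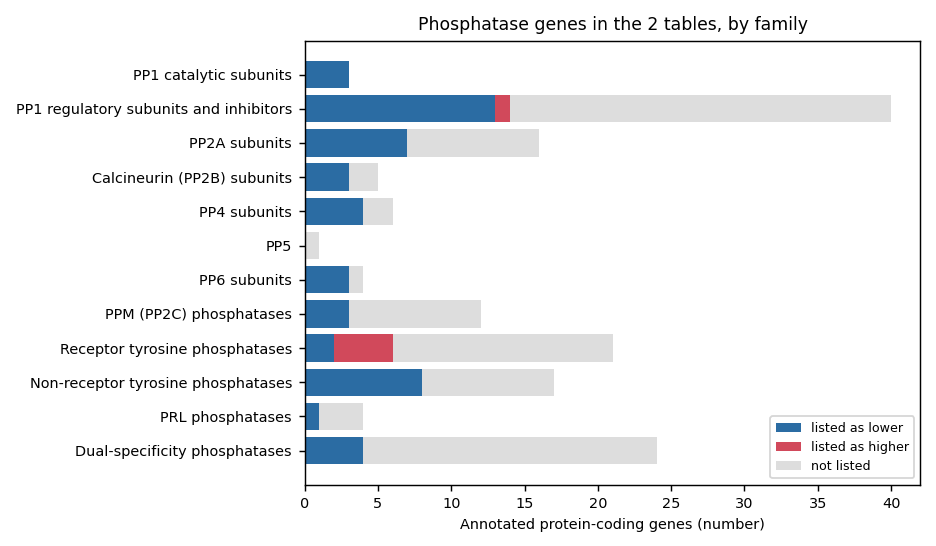
Number of annotated protein-coding genes in each phosphatase family, on the horizontal axis, divided into genes listed as lower in tdTomato+ ILC2s (blue), listed as higher (red) and not listed (grey). Of the 6 listed receptor tyrosine phosphatases 4 are red, and the only other red gene is 1 of 14 listed PP1 regulatory subunits and inhibitors.

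To show the sequences at which transcription of these genes starts, promoter windows from RefSeq (GRCm38.p6) were searched, each of which runs from 250 bases before to 50 bases after an annotated start. Windows were found for 48 of the 56 genes. The cyclic AMP response element, TGACGTCA, which reads the same on both strands, was present in the windows of 5 phosphatase genes, all of them listed as lower: *Dusp1*, *Ppp1r15a*, *Ppp2ca*, *Ptpn11* and *Ppp1r12c*. The 40 bases around the element are printed below on the strand of each gene, because they show which bases flank it, with the element in capitals.
*Dusp1*, chr17:26508592-26508631, minus strand: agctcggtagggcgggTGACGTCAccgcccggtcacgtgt
*Ppp1r15a*, chr7:45526257-45526296, minus strand: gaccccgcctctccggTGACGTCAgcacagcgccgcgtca
*Ppp2ca*, chr11:52098782-52098821, plus strand: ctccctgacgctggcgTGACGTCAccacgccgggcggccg
*Ptpn11*, chr5:121191441-121191480, minus strand: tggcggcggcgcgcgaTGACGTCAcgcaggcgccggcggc
*Ppp1r12c*, chr7:4501726-4501765, minus strand: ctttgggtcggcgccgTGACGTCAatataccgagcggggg

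The element begins 143 bases before the start in *Dusp1*, 12 before it in *Ppp1r15a*, 26 in *Ppp2ca*, 67 in *Ptpn11* and 69 in *Ppp1r12c*. The bases beside the element were shared in part. Directly before it stands g in *Dusp1*, *Ppp1r15a*, *Ppp2ca* and *Ppp1r12c* and a in *Ptpn11*. Directly after it stands c in *Dusp1*, *Ppp2ca* and *Ptpn11*, g in *Ppp1r15a* and a in *Ppp1r12c*. Of the 44 phosphatase genes listed as lower with a window, 11.4% held the element, against 3.61% of all genes listed as lower and 2.03% of all genes. The count behind the first share is 5 genes, and the motif was looked up after the lists were known, so the shares are a description. A match is not evidence that a factor binds there.

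The shorter core TGACGT, which the full element contains on both strands, occurred in 13 of the 48 genes (27.1%). Among genes listed as lower, 25% of the phosphatase genes and 15.5% of all genes held the core, and over all genes the share was 8.37%. Beyond the 5 genes above, the core was found in *Dusp5*, *Ppp1r16b*, *Ppp3r1*, *Ppp4r2*, *Ppp6c* and *Ptpn7* among the genes listed as lower, and in *Ptprk* and *Ptprm* among those listed as higher. The AP-1 site TGAGTCA was in none of the 48 genes and in 5.95% of all genes. The GC box GGGCGG was in 75% of the phosphatase genes listed as lower, near the 75.9% of all genes listed as lower and above the 38.2% of all genes. Further motifs were searched on both strands. The ETS site CCGGAAG was in 15.9% of the phosphatase genes listed as lower, 21% of all genes listed as lower and 9.93% of all genes. For the RUNX site TGTGGTT these shares were 4.55%, 4.29% and 6.09%, for CCAAT 29.5%, 41.8% and 41.1%, and for TATAAA 13.6%, 8.97% and 15.7%. The order against all genes listed as lower thus differed from that against all genes for the GC box, ETS, RUNX and TATAAA.

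The whole windows of *Dusp1* and *Ppp1r15a* are given because both genes are known to be switched on quickly by stimulation or stress. In *Dusp1* the capitals mark the full element and a separate TGACGT, and in *Ppp1r15a* they mark the full element and a TATAAA.
*Dusp1*, chr17:26508423-26508722, minus strand: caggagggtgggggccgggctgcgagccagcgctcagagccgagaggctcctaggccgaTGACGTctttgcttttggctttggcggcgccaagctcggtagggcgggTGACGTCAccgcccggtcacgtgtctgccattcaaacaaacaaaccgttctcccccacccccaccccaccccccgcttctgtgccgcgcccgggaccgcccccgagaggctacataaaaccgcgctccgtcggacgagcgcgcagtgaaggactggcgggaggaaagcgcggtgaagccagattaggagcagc
*Ppp1r15a*, chr7:45526219-45526518, minus strand: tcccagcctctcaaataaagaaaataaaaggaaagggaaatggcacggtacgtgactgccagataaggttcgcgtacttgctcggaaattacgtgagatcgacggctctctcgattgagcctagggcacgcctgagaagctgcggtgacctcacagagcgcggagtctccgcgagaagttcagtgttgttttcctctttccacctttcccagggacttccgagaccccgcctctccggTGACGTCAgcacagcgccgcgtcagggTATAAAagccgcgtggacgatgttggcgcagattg

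The windows of the receptor phosphatase genes *Ptprk* and *Ptprm*, which were listed as higher, have a GC content of 75% and 80.7%. In *Dusp1* and *Ppp1r15a* it is 67% and 55.3%. Windows of phosphatase genes listed as lower run from 33.7% to 81.7%, a range that contains all of these values. Here the capitals mark the GC box and the core TGACGT, on either strand.
*Ptprk*, chr10:28074570-28074869, plus strand: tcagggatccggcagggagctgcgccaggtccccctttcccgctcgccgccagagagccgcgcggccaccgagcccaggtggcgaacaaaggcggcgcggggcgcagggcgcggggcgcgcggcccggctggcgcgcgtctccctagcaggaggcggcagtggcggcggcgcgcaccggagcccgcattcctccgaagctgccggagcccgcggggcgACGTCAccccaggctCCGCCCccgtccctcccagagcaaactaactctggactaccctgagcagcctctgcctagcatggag
*Ptprm*, chr17:67354410-67354709, minus strand: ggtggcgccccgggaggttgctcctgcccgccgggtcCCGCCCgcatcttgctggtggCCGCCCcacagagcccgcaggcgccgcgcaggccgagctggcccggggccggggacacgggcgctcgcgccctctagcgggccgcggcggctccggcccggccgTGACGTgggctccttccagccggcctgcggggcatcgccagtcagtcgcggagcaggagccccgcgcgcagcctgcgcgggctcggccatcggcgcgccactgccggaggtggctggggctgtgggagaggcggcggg

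The 5 windows of the 4 phosphatase genes listed as higher that have one had a median GC content of 75% and a median of 38 CpG dinucleotides. By comparison, the windows of all genes listed as higher had medians of 53% and 8, and those of the phosphatase genes listed as lower 64.5% and 23.5. The CpG counts overlapped, with 10 to 48 in the 5 windows and 2 to 60 in those of the phosphatase genes listed as lower. Thus, the promoters of these 4 genes were richer in CpG than the typical window of the table in which they stand.

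**Figure D2:**
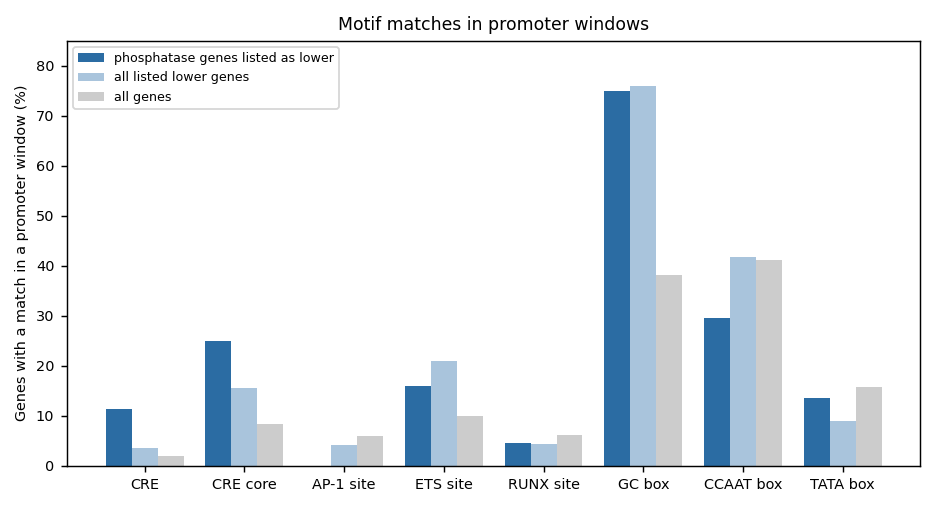
Share of genes (vertical axis, percent) with a match of each motif (horizontal axis, both strands) in a promoter window, for the 44 phosphatase genes listed as lower (dark blue), all genes listed as lower (light blue) and all genes (grey). CRE is the cyclic AMP response element and CRE core its shorter form, and for both of these motifs the bar of the phosphatase genes, at 11.4% and 25%, is above the other bars, while their AP-1 bar is at 0.

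The average levels of the phosphatase genes ran from 5.06 to 9.53 log2 CPM. Their median was 6.47 log2 CPM, and that of all listed genes was 6.23. Above the median of all listed genes stood 33 of the 56 phosphatase genes. The medians of the classes were 6.49 log2 CPM for serine/threonine and 6.30 for tyrosine and dual-specificity genes. Since every listed gene had to reach the limit on the level, these medians describe listed genes only.

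**Figure D3:**
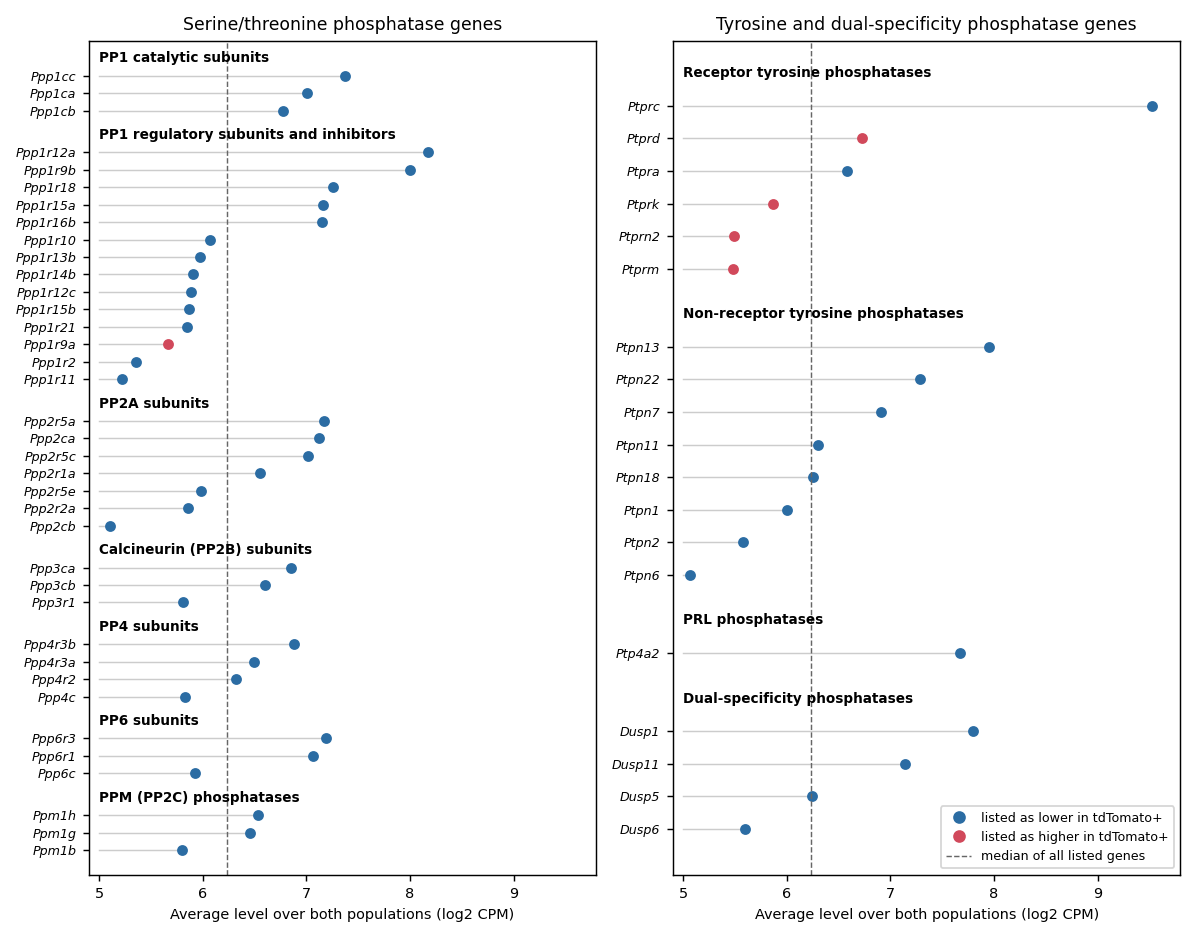
Average level over both populations (horizontal axis, log2 CPM) of each of the 56 phosphatase genes, 1 point a gene, grouped by family, in blue where the gene is listed as lower and in red where it is listed as higher in tdTomato+ ILC2s. The dashed line is the median of all listed genes, 6.23, and no error is drawn because the tables hold 1 average a gene. *Ptprc* lies farthest to the right at 9.53, and 4 of the 5 red points lie left of the line.

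Within the serine/threonine class, the 12 genes that encode an enzyme were all listed as lower. Their share listed as higher has an exact binomial interval of 0% to 26.5%, which contains the 15.5% of all listed genes. The PP1 catalytic subunits, which carry out a large part of serine/threonine dephosphorylation in cells, had 7.38 log2 CPM for *Ppp1cc*, 7.01 for *Ppp1ca* and 6.77 for *Ppp1cb*. Per length the order was different, with 51.0 CPM per kb of exon for *Ppp1ca*, 48.6 for *Ppp1cc* and 10.02 for *Ppp1cb*. The value of *Ppp1cc* is uncertain, since 40% of its transcripts' 50-base words also occur in other genes' transcripts, *Ppp1ccb* sharing the most. For *Ppp1cb* this share was 16.4% and for *Ppp1ca* 10.8%.

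The PP2A catalytic subunit *Ppp2ca* had an average level of 7.12 log2 CPM, and its close relative *Ppp2cb* had 5.10, the second lowest level of all phosphatase genes. In CPM per kb of exon, however, *Ppp2cb* had 23.4 and *Ppp2ca* 18.5, since the annotated exons of *Ppp2ca* cover 7490 bases and those of *Ppp2cb* 1469. Of the words of *Ppp2ca*, 41% were shared with other genes, among which *9430098F02Rik* shared the most. The scaffold subunit *Ppp2r1a*, on which the PP2A trimer is assembled, had 6.55 log2 CPM. The regulatory subunits that select substrates were *Ppp2r5a* (7.17 log2 CPM), *Ppp2r5c* (7.01), *Ppp2r5e* (5.98) and *Ppp2r2a* (5.86). All 7 listed PP2A genes were listed as lower, out of 16 annotated. For their share listed as higher, the exact binomial interval of 0% to 41% contains the 15.5% of all listed genes.

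Calcineurin, the calcium-activated phosphatase that releases NFAT factors into the nucleus, was represented by both of its main catalytic subunits and by its calcium-binding subunit. *Ppp3ca* had 6.85, *Ppp3cb* 6.60 and *Ppp3r1* 5.81 log2 CPM. Per kb of exon these values were 11.6, 11.0 and 17.3 CPM. In a list of 16 genes of the calcineurin and NFAT axis, which contains these 3 genes, 10 were listed as lower and 0 as higher, against 13.2% and 2.3% of all annotated protein-coding genes. Being in the lower table was the rule among listed genes, of which 15.5% were listed as higher, and this holds for each gene list given here. *Calm3* and *Calm2*, which encode the calcineurin activator calmodulin, had 7.21 and 6.78 log2 CPM. Among the NFAT factors, *Nfat5*, which does not depend on calcineurin, had 7.78, *Nfatc3* 7.25, *Nfatc2* 6.90 and *Nfatc1* 5.89 log2 CPM. The calcineurin inhibitors *Rcan1*, *Rcan2* and *Rcan3* were not listed.

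For PP4, which acts in DNA repair and in splicing-related processes, the catalytic subunit *Ppp4c* had 5.82 log2 CPM, and each of its listed regulatory subunits was higher in level, with 6.88 for *Ppp4r3b*, 6.49 for *Ppp4r3a* and 6.32 for *Ppp4r2*. The same was seen for PP6, where *Ppp6c* had 5.92 and the regulatory subunits *Ppp6r3* and *Ppp6r1* 7.19 and 7.07 log2 CPM. Relative to exon length the order within PP4 changed, since *Ppp4r3a* had 6.83 CPM per kb and *Ppp4c* 13.2. *Ppp4r3a* thereby had the lowest level per length of all phosphatase genes listed as lower. The PPM genes were *Ppm1h* (6.53 log2 CPM), *Ppm1g* (6.45), which is linked to splicing, and *Ppm1b* (5.80).

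The regulatory subunits and inhibitors of PP1 spanned the widest range of the serine/threonine class. *Ppp1r12a*, the myosin-targeting subunit, had 8.17 log2 CPM or 288 CPM, and *Ppp1r9b*, spinophilin, which ties PP1 to actin, had 256 CPM. Between 7.15 and 7.25 log2 CPM stood the membrane-bound *Ppp1r16b*, the stress-induced *Ppp1r15a* and the actin-binding *Ppp1r18*. A lower set from 5.85 to 6.07 log2 CPM comprised *Ppp1r10* (PNUTS, a nuclear subunit), *Ppp1r13b* (ASPP1, a partner of p53), the inhibitor *Ppp1r14b*, the myosin-targeting *Ppp1r12c*, *Ppp1r15b* and *Ppp1r21*. Lowest were the inhibitors *Ppp1r2* and *Ppp1r11*, with 5.35 and 5.22 log2 CPM. Reads of *Ppp1r2* and *Ppp1r14b* can be divided with other genes, since 9.11% and 21.7% of their words were shared. For *Ppp1r2*, the pseudogene *Ppp1r2-ps4* shared the most. Words were also shared in *Ppp1r15b* (10.6%) and, outside this family, in *Ppp2r5a* (20.6%), *Ppp4r2* (16.5%), *Ppm1b* (13.4%), *Ppp3r1* (13%) and *Ppp4r3a* (9.21%). In *Ppp6r1*, *Ppp2r2a*, *Ptpn18* and *Ptpn6* the share was 5.01% to 6.35%.

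Both genes that direct PP1 to the translation factor eIF2α, whose dephosphorylation ends the integrated stress response, were listed as lower. The stress-inducible *Ppp1r15a* (GADD34) had 7.16 log2 CPM and 48.8 CPM per kb of exon, and the constitutive *Ppp1r15b* had 5.87 log2 CPM and 10.4 CPM per kb. Of 11 other genes of this response, 3 were listed, all as lower, where 13.2% of all annotated protein-coding genes were. They were *Atf4* (6.23 log2 CPM), its target *Ddit4* (5.21) and *Eif2s1*, the gene of eIF2α itself (6.13). The 4 eIF2α kinase genes and *Ddit3* were not listed.

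Neurabin and spinophilin, the actin-binding PP1 subunits encoded by *Ppp1r9a* and *Ppp1r9b*, stood in opposite tables. *Ppp1r9a*, known mainly from neurons, had 5.67 log2 CPM and was the single serine/threonine gene listed as higher, whereas *Ppp1r9b* was listed as lower. The average level of *Ppp1r9b* was 50.4 CPM per kb of exon and that of *Ppp1r9a* 3.50. *Ppp1r9a* covers 262.7 kb of chromosome 6 (GRCm38, 4902917 to 5165661) and *Ppp1r9b* 15.9 kb of chromosome 11.

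*Ptprc*, the gene of CD45, had the highest level of all phosphatase genes, at 9.53 log2 CPM or 737 CPM, which placed it at rank 49 of the 3439 listed genes. It accounted for 11.6% of the summed average CPM of the 56 genes. The gene covers chr1:138062861-138175708 (GRCm38, minus strand). Its level per kb of exon, 40.2 CPM, was below that of *Dusp1*, 67.0 CPM, the highest of the phosphatase genes on this scale. CD45 is also part of the gate by which ILC2s were sorted, so the presence of its transcript was fixed by the sort. *Ptpra*, another receptor phosphatase that activates Src-family kinases, had 6.58 log2 CPM.

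The kinases on which CD45 acts and the proteins that hold them inactive were looked up in a list of 10 genes, of which 5 were listed, all as lower, against 13.2% of all annotated protein-coding genes. *Fyn* had 6.91, *Lyn* 5.88 and *Lck* 5.35 log2 CPM. *Csk*, the kinase that inhibits this family, had 6.82, and *Pag1*, the adaptor that recruits Csk to the membrane, 6.35. *Ptpn22*, which removes activating phosphates from these kinases together with Csk, had 7.28 log2 CPM. *Src*, *Yes1*, *Fgr* and *Blk* were not listed.

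Of the 17 annotated non-receptor tyrosine phosphatases, 8 were listed, all as lower. The exact binomial interval of their share listed as higher, 0% to 36.9%, contains the 15.5% of all listed genes. *Ptpn13*, a very large phosphatase with several protein-binding domains, had 7.95 log2 CPM, followed by *Ptpn22* and by *Ptpn7*, which acts on MAP kinases in blood cells, with 6.91. *Ptpn11* (SHP2), which bears the response element shown above, had 6.30 and *Ptpn18* 6.25. *Ptpn1* and *Ptpn2*, which act on JAK kinases and their receptors, had 6.01 and 5.58 log2 CPM. *Ptpn6* (SHP1) had 5.06 log2 CPM, the lowest level of all 56 phosphatase genes and just above the limit of the tables. Per kb of exon, *Ptpn6* and *Ptpn11* had 11.9 and 10.5 CPM, so that the difference in level between them was not seen on this scale.

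Among 17 receptors and adaptors that work with SHP1 or SHP2, 4 were listed, all as lower, against the same 13.2% of annotated genes. They were *Pdcd1*, the gene of PD-1 (6.48 log2 CPM), *Klrg1* (6.47), *Lilrb4a* (6.49) and the adaptor *Grb2* (6.30). *Tigit* was among the 13 genes that were not listed.

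The dual-specificity genes were *Dusp1* (7.79 log2 CPM), *Dusp11* (7.14), *Dusp5* (6.24) and *Dusp6* (5.60). *Dusp1* encodes an inducible nuclear phosphatase of p38 and JNK, and *Dusp5* and *Dusp6* are restricted to ERK, in the nucleus and in the cytoplasm. *Dusp11* acts on RNA rather than on MAP kinases. Relative to exon length these genes had 67.0 CPM per kb (*Dusp1*), 30.5 (*Dusp5*), 16.1 (*Dusp11*) and 15.4 CPM (*Dusp6*). Of the words of *Dusp5*, 20.5% were shared with other annotated genes, among which *AC137853.2* shared the most. Among the MAP kinase genes, *Mapk14* (6.12 log2 CPM) and *Mapk3* (5.06) were listed as lower. The remaining tyrosine phosphatase, *Ptp4a2*, a small membrane-attached enzyme that promotes growth, had 7.67 log2 CPM and 46.5 CPM per kb.

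Receptor tyrosine phosphatases were the only family with more genes listed as higher than as lower. The share was 4 of 6 (66.7%, exact binomial interval 22.3% to 95.7%), where 15.5% of all listed genes were listed as higher. Apart from *Ptprc* and *Ptpra*, the 4 other listed genes were in the higher table. Each of these 4 spans more than 500 kb, and of all listed genes with a span of at least 500 kb 86.2% were listed as higher. *Ptprd*, which organizes synapses, had 6.73 log2 CPM. *Ptprk* and *Ptprm*, which mediate adhesion between neighbouring cells, had 5.87 and 5.48 log2 CPM. *Ptprn2*, a protein of secretory granules whose phosphatase domain lacks classical activity, had 5.49 log2 CPM. Per kb of exon the averages were 4.64 CPM for *Ptprd*, 4.39 for *Ptprk*, 5.05 for *Ptprm* and 5.21 for *Ptprn2*. The other 15 annotated genes of this symbol group, which include the CD45-associated protein *Ptprcap*, were not listed.

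The phosphatase genes listed as higher were long, although their lengths overlapped with those of genes listed as lower. They spanned 262.7 kb (*Ppp1r9a*), 522.6 kb (*Ptprk*), 687.5 kb (*Ptprm*), 791.1 kb (*Ptprn2*) and 2270.7 kb (*Ptprd*) of GRCm38. By contrast, the median span of the 51 phosphatase genes listed as lower was 38.8 kb, and the longest were *Ppp3ca* with 267.6 kb and *Ppm1h* with 267.0 kb. In GRCm38, *Ptprd* covers chr4:75941238-78211961 and *Ptprm* chr17:66666947-67354457, both on the minus strand. *Ptprk* covers chr10:28074820-28597397 and *Ptprn2* chr12:116485720-117276849, both on the plus strand. *Ppp1r9a* was thus shorter than both of these genes. The median exonic length was 13328 bases in the 5 genes (8602 to 22822) and 5343 bases in the 51 (1469 to 18313, the highest in *Ptprc*, the lowest in *Ppp2cb*).

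This difference in length was shared by the tables as a whole. The median span was 146.6 kb for all genes listed as higher and 28.65 kb for all genes listed as lower, and the median exonic lengths were 10480 and 5194 bases. Of the 239 listed genes with a span of at least 250 kb, 73.2% were listed as higher. Of the 7 phosphatase genes of that span 5 were listed as higher, and of the 49 shorter ones 0 were, against 11.2% of all shorter listed genes. The limit of 250 kb was chosen after seeing the data and lies just under the 262.7 kb of *Ppp1r9a*. With a limit of 100 kb, 5 of 15 phosphatase genes were listed as higher, against 47% of all listed genes of that span. With a limit of 500 kb the count was 4 of 4, against 86.2% of all listed genes. The part of gene length in the division of the phosphatase genes was not tested.

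A similar division was seen in the level per kb of exon. The 5 phosphatase genes listed as higher had 3.50 to 5.21 CPM per kb, and the 51 listed as lower had 6.83 to 67.0 CPM per kb, so the ranges did not overlap. Among all listed genes, 365 had at most the 5.21 CPM per kb of *Ptprn2*, and 97.3% of them were listed as higher. Above this level, 5.76% of 3072 listed genes were listed as higher. Since the tables hold only genes over a fixed average CPM, a low level per kb can only be listed for a gene with long exons.

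**Figure D4:**
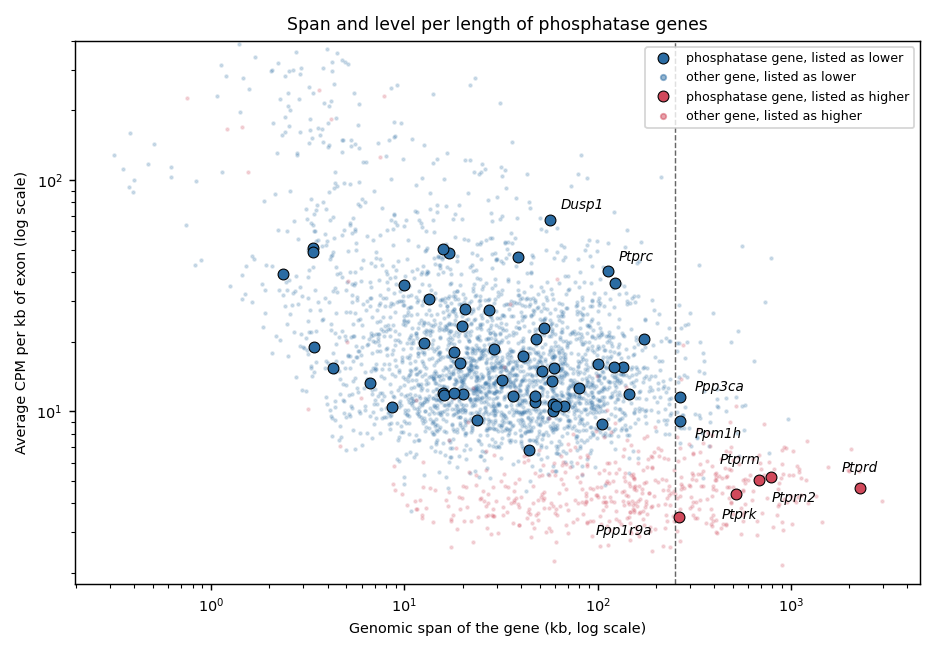
Genomic span of each listed gene (horizontal axis, kb, log scale) and its average CPM per kb of exon (vertical axis, log scale), with phosphatase genes as large outlined points and other listed genes as small points, blue where listed as lower and red where listed as higher. The dashed line is a span of 250 kb, and 34 genes above 400 CPM per kb are outside the plot. The 5 large red points lie at the lower right, between 3.50 and 5.21 CPM per kb, among the small red points.

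Phosphatase genes outside the symbol rule were looked up in a list of 35 genes. Of these, 11 were listed as lower, 0 as higher, and 24 were not listed, where 13.2% of all annotated protein-coding genes were listed as lower and 2.3% as higher. The phosphatases of inositol lipids *Inpp4b* and *Inpp5d* (SHIP1) had the highest levels of this list, with 9.24 and 7.83 log2 CPM. *Mtmr3*, *Ssh1* and *Eya2* had 6.87, 6.50 and 6.20 log2 CPM, and *Ctdsp2*, *Ctdsp1*, *Mtmr6*, *Mtmr1* and *Pptc7* had 5.10 to 6.03. In a list of 15 partners and inhibitors of PP2A, 8 were listed as lower and 0 as higher, to be read against the same shares, led by the inhibitors *Anp32a* (7.47 log2 CPM) and *Set* (7.40).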

How the data were processed

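The authors checked paired-end reads of a stranded low-input kit with FASTP, aligned them with STAR, counted them with featureCounts and compared both populations with edgeR. The paper's methods name GRCm39 and the submitters' processing notes mm10, and versions and normalization are not given in the sources used here. The deposited log2 value is the average log2 CPM of the authors over the libraries of their comparison, 1 per gene. Their fold changes, likelihood ratios, p-values and FDRs were not used. The number of unused columns of per-sample values is 0. Depth per library is unknown.

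The members and gene lists were chosen with earlier results of these data known. Every member is named, with values for all enzymes, all tyrosine-class members, the higher table and the extremes. Identifiers were joined to GENCODE M21 (GRCm38), which held 3437 of 3439 listed genes and all 56 phosphatase genes, for position, union exonic length and coding length. Levels per length are the average CPM divided by kb of exon. Shared words are those of 50 bases that occur on either strand in transcripts of other genes, and 17 phosphatase genes shared more than 5% and 17 none. Exact (Clopper-Pearson) 95% binomial intervals cover counting error only. Counts and motif searches were tested on simulated data (Python 3.11.15, pandas 2.3.3, scipy 1.17.1). ATAC-seq, with 2 libraries a population by the labels, was not used here. Some genes of the lists are not reported here.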

Additional observations from a re-analysis of the deposited data

How the results depend on the processing

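No paired analysis was possible because the tables hold 1 average per gene and no value of a library, and for the same reason no library could be left out. The share of phosphatase genes listed as higher, 8.93%, was 2.86% (1 of 35) among genes with an average of at least 6 log2 CPM and 12.9% among the 31 genes classed as encoding a phosphatase, *Ptprn2* included although its domain lacks classical activity. For serine/threonine genes it was 0% under either alternative, and for tyrosine and dual-specificity genes 7.69% (1 of 13) and 21.1%. The share over all listed genes with at least 6 log2 CPM was not computed. The third quartile of all genes listed as higher was 5.94 log2 CPM, and the median of all genes listed as lower was 6.39. The limit of 6 thus lies above most of the genes listed as higher, also outside the phosphatases. The median level was 7.01 log2 CPM in serine/threonine and 6.91 in tyrosine and dual-specificity genes with at least 6 log2 CPM, and 6.57 in serine/threonine genes that encode a phosphatase. Counted as residues of the longest coding sequence, the median length was 513 in the 51 genes listed as lower and 1471 in the 5 listed as higher. With only protein-coding genes, 14.6% of all listed genes were listed as higher, and of all 167 annotated genes that match the rule 33.5% were listed. In alternatives chosen after seeing the data, 0 of the 51 genes listed as lower were at or under the highest level per kb of the 5, also per kb of coding sequence, and 47% of listed genes spanning at least 100 kb and 86.2% of those spanning at least 500 kb were listed as higher. The planned searches of protein sequence, for a catalytic motif and for identity between subunits, were not run because no protein table was used here. Depth per library is unknown, so no limit of detection can be given.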
